A study of Mus musculus with 14 samples.

Results

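The genes examined here set the pace of the G1 phase of the cell cycle: the CDK inhibitors Cdkn1a, Cdkn1b, Cdkn1c, Cdkn2a and Cdkn2c, the D-type cyclins Ccnd1, Ccnd2 and Ccnd3, and the kinases Cdk4 and Cdk6 to which these cyclins bind. They were taken as the probe sets whose only gene symbol in the probe table is one of these 10 names. All 10 genes were present, with 22 of the 22626 probe sets on the array. Of the 12393 genes with a symbol of their own, they are 10. Hematopoietic stem cells (HSCs) of 12-mo-old p53+/m mice and of 12-mo-old p53+/- mice, HSCs of wild-type (WT) mice of 2, 6, 12 and 21 mo, and whole bone marrow (WBM) of WT mice of 2 mo were hybridized to Affymetrix MOE430A arrays, 2 arrays (A and B) to a group, 14 arrays in 7 groups. The m allele encodes a truncated p53 and its carriers have an augmented p53 response, whereas p53+/- mice have lost a single copy of p53. All mice were male and on a C57Bl/6 background, and neither p53 mutant is restricted to blood cells. The paper describes the mutants as back-crossed to this background over several generations, and the aging WT mice as carrying a marker allele of a blood cell surface protein. Any remaining strain differences could not be separated from genotype in the comparisons of mutants with WT. Ages are those of the titles and treatment notes, although a further label field has 2 mo throughout.

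HSCs were sorted as side population cells, which pump out the dye Hoechst, that carried c-Kit and Sca-1 and lacked lineage markers. Each HSC array held RNA pooled from several mice, and pooling is not stated for WBM, so that a p-value measures the spread between such pools. The values are log2 GC-RMA levels, 1 per probe set, and a value on 1 probe set cannot be set against that of another. Array medians lay between 3.93 and 4.10, and 42.7% to 43.6% of the probe sets read 5 or above. Arrays A and B differed most at 12 mo in WT HSCs, with an SD of A minus B over all probe sets of 0.815, against 0.297 to 0.440 in the other 6 groups. Of 7 HSC markers measured, 5 were higher in 2-mo HSCs than in WBM, and all 4 erythroid, all 7 neutrophil and all 5 monocyte and macrophage markers were lower, as were 3 of 5 B lineage, 1 of 4 megakaryocyte and 9 of 12 proliferation markers. None of the 4 erythroid markers reached log2 5 on any HSC array. In RNA of a cell mixture such as WBM, fewer cells of a type and less RNA per cell cannot be told apart.

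D-type cyclins are the cyclins that mitogens and cytokines induce as a cell leaves quiescence. Bound to Cdk4 or Cdk6 they phosphorylate the retinoblastoma protein and so release E2F factors, which transcribe the genes of DNA replication. Inhibitors of the INK4 class, encoded by Cdkn2a and Cdkn2c, bind Cdk4 and Cdk6 themselves, while those of the CIP/KIP class, p21 (Cdkn1a), p27 (Cdkn1b) and p57 (Cdkn1c), act on complexes of cyclins with their kinases, above all those of Cdk2. Most HSCs of adult mice are quiescent, and p21, p57 and p18 (Cdkn2c) are each known from knockout mice for effects on that state. Cdkn1a is also the classical target gene of p53, and Cdkn2a, which encodes both p16 and the p53 activator p19Arf, is known for its induction in many aging tissues.

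Upstream sequence is given as background, and its part in the p53 comparison was not tested. RefSeq (GRCm38.p6) gave promoter sequence for 7 of the 10 genes at 11 transcript starts, and not for Cdkn1c, Ccnd1 or Ccnd2. The 250 bases before each start were searched on both strands. A p53 response element, sought as 20 bases with at most 1 mismatch to the consensus of a pair of adjacent decamers, was found before 1 of the 11 starts, the upstream one of Cdkn1a, and before 0.0457% of all 32851 starts. It begins 51 bases before that start. The window of this start (chr17:29090729-29090978, plus strand) is shown with the element in capitals, and that of the downstream start of Cdkn1a (chr17:29093519-29093768, plus strand) with its GC boxes (GGGCGG) in capitals.
Cdkn1a, upstream start: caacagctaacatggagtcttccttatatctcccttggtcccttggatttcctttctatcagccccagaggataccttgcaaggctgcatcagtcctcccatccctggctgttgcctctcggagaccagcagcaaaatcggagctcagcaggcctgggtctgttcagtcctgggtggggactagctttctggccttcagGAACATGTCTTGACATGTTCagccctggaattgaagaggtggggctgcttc
Cdkn1a, downstream start: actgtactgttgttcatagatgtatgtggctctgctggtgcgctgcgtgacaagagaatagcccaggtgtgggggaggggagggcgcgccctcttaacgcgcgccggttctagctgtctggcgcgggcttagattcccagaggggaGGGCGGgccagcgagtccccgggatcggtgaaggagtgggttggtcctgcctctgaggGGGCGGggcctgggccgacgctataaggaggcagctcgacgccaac

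The first start of each of Cdkn2c (chr4:109666757-109667006, minus strand) and Ccnd3 (chr17:47504801-47505050, plus strand) is shown because these were the members called lower in HSCs than in WBM, again with GC boxes in capitals on either strand.
Cdkn2c, first start: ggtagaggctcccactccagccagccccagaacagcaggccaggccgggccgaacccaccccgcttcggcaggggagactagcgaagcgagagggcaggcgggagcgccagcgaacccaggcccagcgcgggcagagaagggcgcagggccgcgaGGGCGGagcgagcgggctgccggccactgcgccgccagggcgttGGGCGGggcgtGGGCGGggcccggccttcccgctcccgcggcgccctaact
Ccnd3, first start: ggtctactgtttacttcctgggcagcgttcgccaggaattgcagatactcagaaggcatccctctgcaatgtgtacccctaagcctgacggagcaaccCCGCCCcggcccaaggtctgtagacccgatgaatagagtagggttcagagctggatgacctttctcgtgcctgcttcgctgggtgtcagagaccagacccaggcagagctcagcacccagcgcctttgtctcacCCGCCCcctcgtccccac
A GC box was present before 7 of the 11 starts of members and before 32.7% of all starts. The window of the first start of Cdkn2c held 3 of them and was 77.2% G and C, against a median of 52.4% over all starts. That of its second start was 42.8% G and C and held no GC box. An E2F site (TTTCGCGC, TTTGGCGC, TTTCCCGC or TTTGCCGC) was present before the first start of Cdkn2a alone among the members with sequence, and before 1.86% of all starts. An E box (CACGTG) was matched 4 times before the start of Cdk4 and once before that of Cdk6, against 6.02% of all starts with any. Such matches describe the letters in these windows only.

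**Figure D1:**
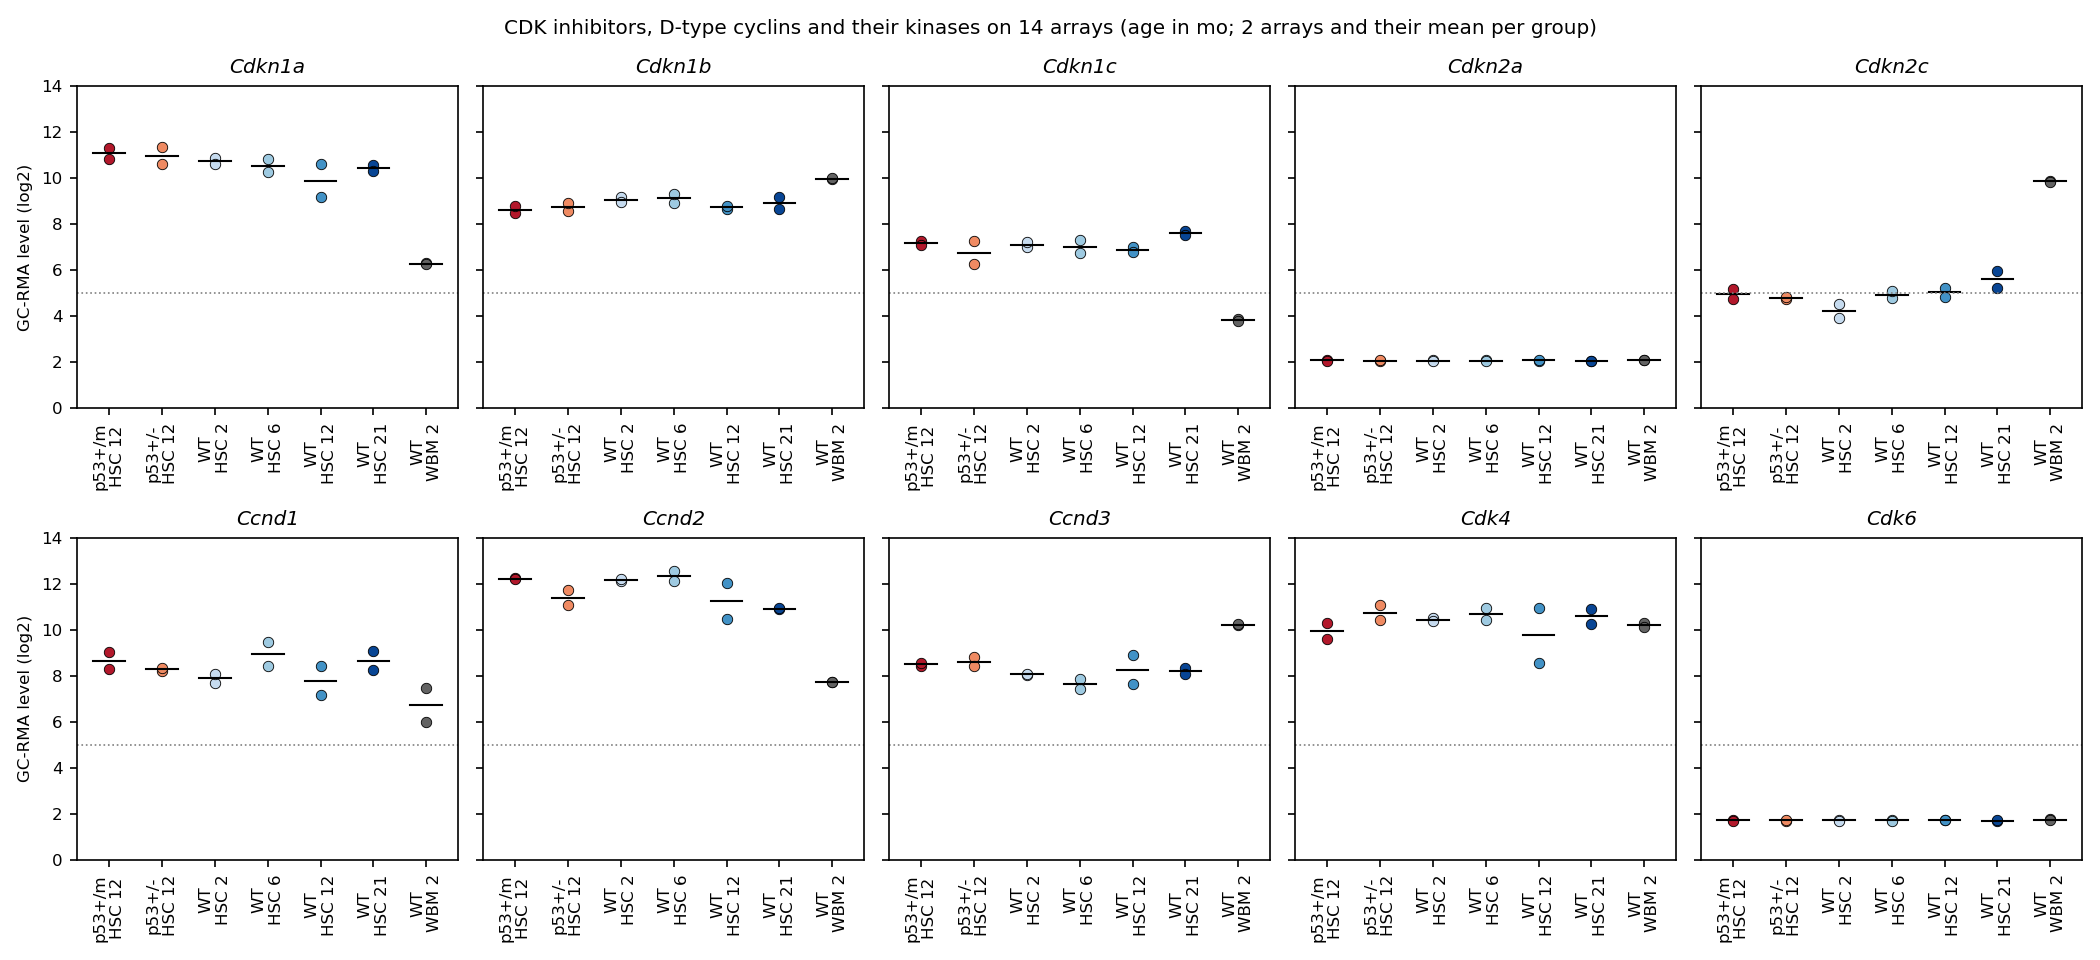
Log2 GC-RMA level of each of the 10 genes on the 14 arrays; points are arrays A and B of a group, bars their mean, and the dotted line marks log2 5. Cdkn1a, Cdkn1c and Ccnd2 lie higher on all 12 HSC arrays than on both WBM arrays, Cdkn1b, Cdkn2c and Ccnd3 lower, and Cdkn2a and Cdk6 stay near the bottom of the scale throughout.

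The comparison of 2-mo HSCs with 2-mo WBM asked which of these regulators mark the stem cell. HSCs had higher levels of the inhibitors Cdkn1a and Cdkn1c and of the cyclin Ccnd2, by 9.72- to 21.9-fold on their main probe sets. They had lower levels of the inhibitor Cdkn2c, by 49.5-fold, and of the cyclin Ccnd3, by 4.47-fold. The size of a fold is uncertain for Cdkn1c (9.72-fold), with WBM readings under log2 5, and for Cdkn2c, with HSC readings under log2 5. The 7 probe sets of Ccnd2 ran from 1.53- to 21.4-fold. Thus 3 genes were called higher and 2 lower of 10, beside 1650 higher and 1298 lower of all 12393 genes. By probe set, 9 of the 22 were called higher and 2 lower, beside 11% and 9.69% of all probe sets. The median difference of the 10 genes was 0.10, against −0.01 over all genes. A probe set was called at a Benjamini-Hochberg adjusted p under 0.05 in limma and a difference of at least 2-fold, over all 22626 probe sets. Over all ages and genotypes, the 3 genes called higher also read higher on all 12 HSC arrays than on both WBM arrays, and 3 genes read lower, the 2 called and Cdkn1b, which makes 60%, against 34.3% of all genes.

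Among the CIP/KIP inhibitors, Cdkn1a (p21) read 10.87 and 10.60 on the HSC arrays of 2 mo, against 6.30 and 6.26 on the WBM arrays. The difference was 4.45 (SE 0.46, adjusted p = 0.00121). A further Cdkn1a probe set, 1421679_a_at, read 9.47 and 9.56 in HSCs and 2.98 and 2.07 in WBM, a difference of 6.99 (SE 0.33, adjusted p = 5.15e-05). Both probe sets thus had well separated groups, but the WBM readings of 1421679_a_at lie near the bottom of the scale, where the size of a fold is uncertain.

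Cdkn1c (p57), which is imprinted and expressed from the maternal allele, read 7.01 and 7.21 in HSCs, against 3.87 and 3.79 in WBM. The difference was 3.28 (SE 0.19, adjusted p = 1.28e-04). Its lowest HSC array of all ages and genotypes, p53+/- B, read 6.25, still above WBM. Cdkn1b (p27), in contrast, read 9.16 and 8.97 in HSCs and 9.942 and 10.002 in WBM. That difference of −0.91 (SE 0.21, adjusted p = 0.0248) was under 2-fold, and Cdkn1b was therefore not called. Its other probe set, 1419497_at, stayed between 2.55 and 2.73 on every array.

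Of the INK4 inhibitors, Cdkn2c (p18) was far lower in HSCs than in WBM. It read 4.54 and 3.94 in HSCs of 2 mo, against 9.89 and 9.85 in WBM, a difference of −5.63 (SE 0.31, adjusted p = 9.75e-05). No HSC array exceeded 5.98. Cdkn2a read 2.09 and 2.06 in HSCs and 2.11 and 2.09 in WBM, and lay between 2.05 and 2.11 on all 14 arrays. No detection calls come with these values, so that for Cdkn2a, as for Cdk6, neither a level nor a change could be measured.

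The 3 D-type cyclins did not move together. Ccnd2 read 12.09 and 12.20 in HSCs, against 7.74 and 7.73 in WBM, a difference of 4.42 (SE 0.48, adjusted p = 0.00156). Its 7 probe sets all had a higher mean in HSCs, with differences of 0.61 to 4.42, and 6 of them were called. Ccnd3, the D-type cyclin best known from lymphoid and erythroid precursors, read 8.03 and 8.08 in HSCs and 10.19 and 10.24 in WBM. Its difference was −2.16 (SE 0.39, adjusted p = 0.0107), and the call was lost, at adjusted p-values of 0.0551 to 0.0579, without any one of these 4 arrays. Ccnd1 read 7.68 and 8.09 in HSCs, against 6.00 and 7.48 in WBM. The lower HSC array lay just above the higher WBM array, and its difference of 1.15 (SE 0.70, adjusted p = 0.371) did not pass on this or on its other 2 probe sets (1.22 and 1.29).

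The kinase Cdk4 read 10.51 and 10.36 in HSCs, against 10.30 and 10.11 in WBM. Its difference of 0.23 had a 95% interval of −1.62 to 2.07 (adjusted p = 0.905), and its 3 probe sets ran from −0.73 to 0.23. Cdk6 read 1.74 and 1.70 in HSCs and 1.75 and 1.73 in WBM, and between 1.69 and 1.75 on all arrays.

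**Figure D2:**
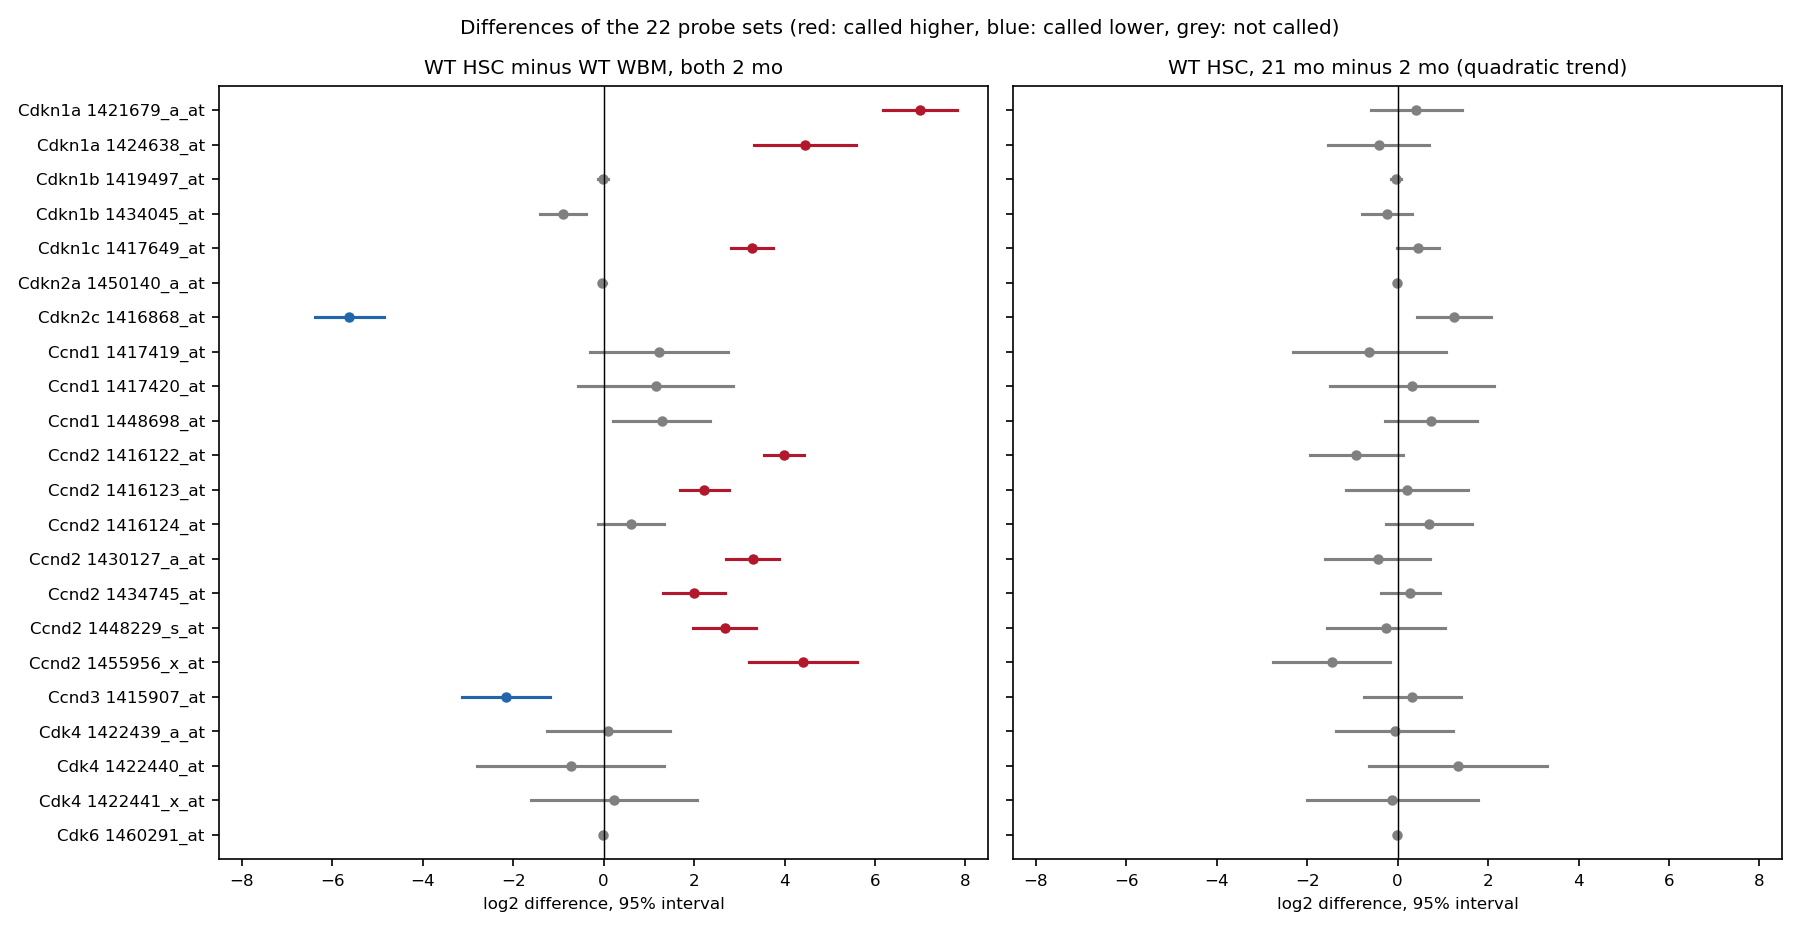
Log2 differences of the 22 probe sets, WT HSCs minus WT WBM at 2 mo on the left and WT HSCs at 21 mo minus 2 mo on the right; points are limma estimates, bars 95% intervals, red called higher, blue called lower, grey not called. Against WBM 9 probe sets are higher and 2 lower, whereas none is called with age.

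The other genes of the pathway were mostly lower in HSCs. Of 36 measured, 14 were lower and 1 higher on their main probe sets, with a median difference of −0.78. Those with the largest differences on their main probe sets were Cdc25b (−6.54, adjusted p = 0.00146) and Cdc25c (−4.10, adjusted p = 9.43e-05), phosphatases that activate CDKs, and the cyclins Ccnb2 (−6.44, adjusted p = 4.98e-05) and Ccna2 (−4.75, adjusted p = 2.04e-04) of mitosis and S phase. Cdc25c (2.57) and Ccnb2 (3.37) read under log2 5 in HSCs, so that the sizes of their differences, and the order of these genes, are uncertain. By group, all 3 CDC25 phosphatases, both mitotic genes, 3 of 5 cyclins and kinases of the G1 to S transition, 2 of 3 members of the retinoblastoma family, 2 of 7 E2F and DP factors, 1 of 2 further INK4 genes and 1 of 6 upstream regulators, Foxo3, were lower. None of the 3 genes of the CDK-activating kinase and none of the 5 genes of inhibitor turnover was called on its main probe set. Cdk7 of the CDK-activating kinase missed 2-fold only narrowly (0.99, adjusted p = 0.0198). Among the turnover genes, other probe sets were called lower in HSCs for Skp2 (−1.65, adjusted p = 0.0421) and Cks2 (−2.44, adjusted p = 0.00786). The same held for Fbxw7 (−1.58, adjusted p = 0.0182). A further Skp2 probe set was higher in HSCs but did not pass (1.70, adjusted p = 0.0852). Bmi1, a polycomb gene known for repressing Cdkn2a, was the 1 gene that was higher, with 10.60 in HSCs and 9.33 in WBM (difference 1.26, SE 0.23, adjusted p = 0.0111). The proliferation markers were lower in HSCs as well (mean level of the 12 markers 7.80 and 7.92 in HSCs, 10.66 and 10.68 in WBM). The 5′ control for 18S ribosomal RNA, in contrast, was higher in HSCs (10.91 and 10.88, against 5.32 and 5.14 in WBM). The part of either in the differences, those of the 10 genes included, was not tested.

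**Figure D3:**
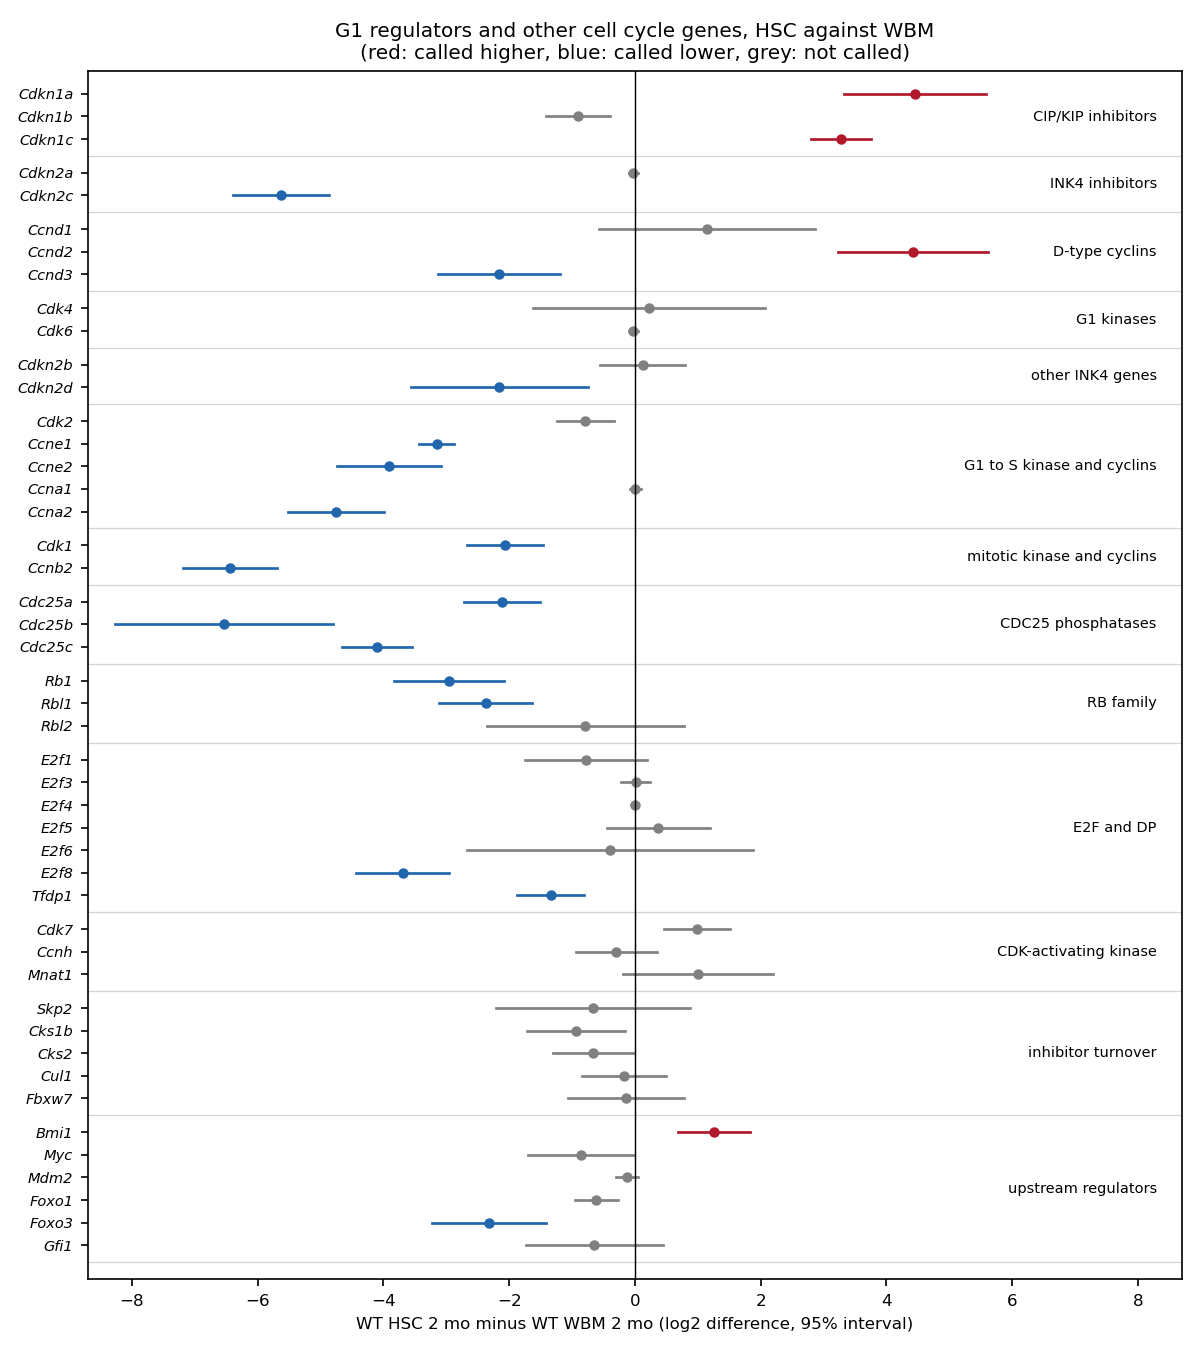
Log2 difference between WT HSCs and WT WBM at 2 mo for the 10 genes (first 4 groups) and the 36 other genes of the pathway; points are limma estimates, bars 95% intervals, red called higher, blue called lower, grey not called. Of the other genes, each on its main probe set, 14 lie lower and 1, Bmi1, higher.

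Over the 14 arrays, 4 members varied by an SD of at least 1, and the genes closest to them in pattern were sought as those with the smallest root mean square difference from the centered profile. Closest to Cdkn1a were Cish, an inhibitor of cytokine receptor signaling (0.353), Sertad1 (0.358) and Impact (0.414). Cish read 8.81 to 9.81 on the HSC arrays, against 5.45 and 4.86 in WBM. Closest to Cdkn1c were Ttl, a tubulin ligase (0.325), Dnajc12 (0.327) and Nicn1 (0.329). Closest to Ccnd2 were Ripk3, a kinase of necroptosis (0.285), Cxxc5 (0.331) and Dnmt3b, a de novo DNA methyltransferase (0.339). For Cdkn2c they were Adgre4, an adhesion receptor of myeloid cells (0.268), the neuropilin gene Nrp1 (0.352) and the ubiquitin ligase gene Marchf2 (0.356), and Adgre4 read 6.27 to 7.73 in HSCs, against 11.61 and 11.64 in WBM. These values describe likeness over 14 arrays, in which the step between HSCs and WBM outweighs all else.

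With aging of WT HSCs, from 2 to 21 mo, none of the 10 genes passed the threshold. For Cdkn2a and Cdk6, at the bottom of the scale, no change could be measured. In limma with a quadratic trend over the 8 arrays, 0 of 22 probe sets were called, where 1.32% of all probe sets were called higher at 21 mo and 1.51% lower. Of the 10 genes, 2, Cdkn2c and Ccnd2, had an unadjusted p under 0.05, as had 2 of their 22 probe sets, against 21.1% of all probe sets. Differences with age are fitted from the trend over all 4 ages, and can depart from the difference between the arrays of 21 and 2 mo. The median difference was −0.01 over the 10 genes and −0.02 over all genes.

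Cdkn2c had the most regular course. It read 4.54 and 3.94 at 2 mo, 4.79 and 5.08 at 6 mo, 5.21 and 4.85 at 12 mo and 5.98 and 5.24 at 21 mo. The arrays of 21 mo thus lay above those of every other age, while those of 6 and 12 mo overlapped. On how many of all probe sets this held was not counted. The difference between 21 and 2 mo was 1.24 (SE 0.33, 95% interval 0.42 to 2.06), with an unadjusted p of 0.0101 and an adjusted p of 0.105. It was called only with a filter on low values (adjusted p = 0.0405). Cdkn2c is a gene of high level in WBM, and mean levels of myeloid markers were also higher at 21 than at 2 mo. That of 5 monocyte and macrophage markers was 6.28 and 6.75 on the arrays of 21 mo, against 4.89 and 5.45 on those of 2 mo. Of these markers, 2 of 5 were called higher. That of 7 neutrophil markers was 5.34 and 6.31, against 4.65 and 5.05, with 1 of 7 called. Between these ages the markers did not follow the course of Cdkn2c. The neutrophil mean was lower at 6 mo (3.09 and 3.74) than at 2 mo, and was 4.45 and 4.91 at 12 mo. The monocyte and macrophage mean stayed within its 2-mo range at 6 and 12 mo. None of the 4 erythroid markers was above log2 5 in HSCs. Whether these cells contributed to the Cdkn2c values was not tested.

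Ccnd2 gave no single answer with age, since its probe sets differed. On 1455956_x_at, the brightest, the gene read 12.09 and 12.20 at 2 mo, 12.53 and 12.12 at 6 mo, 10.44 and 12.04 at 12 mo and 10.87 and 10.95 at 21 mo. The 21-mo arrays lay below those of 2 and 6 mo, and the 2 arrays of 12 mo fell on either side. The difference of −1.46 (SE 0.53, adjusted p = 0.190) was called without WT 12 mo A (−1.26, adjusted p = 0.0172) and without both arrays of 12 mo (−1.24, adjusted p = 0.0250). Of the 7 probe sets, 4 had a negative and 3 a positive difference, from −1.46 to 0.70. On 1416124_at, for one, the level was 6.55 and 6.62 at 2 mo, 6.80 and 7.51 at 6 mo, 6.53 and 6.77 at 12 mo and 7.23 and 7.82 at 21 mo.

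**Figure D4:**
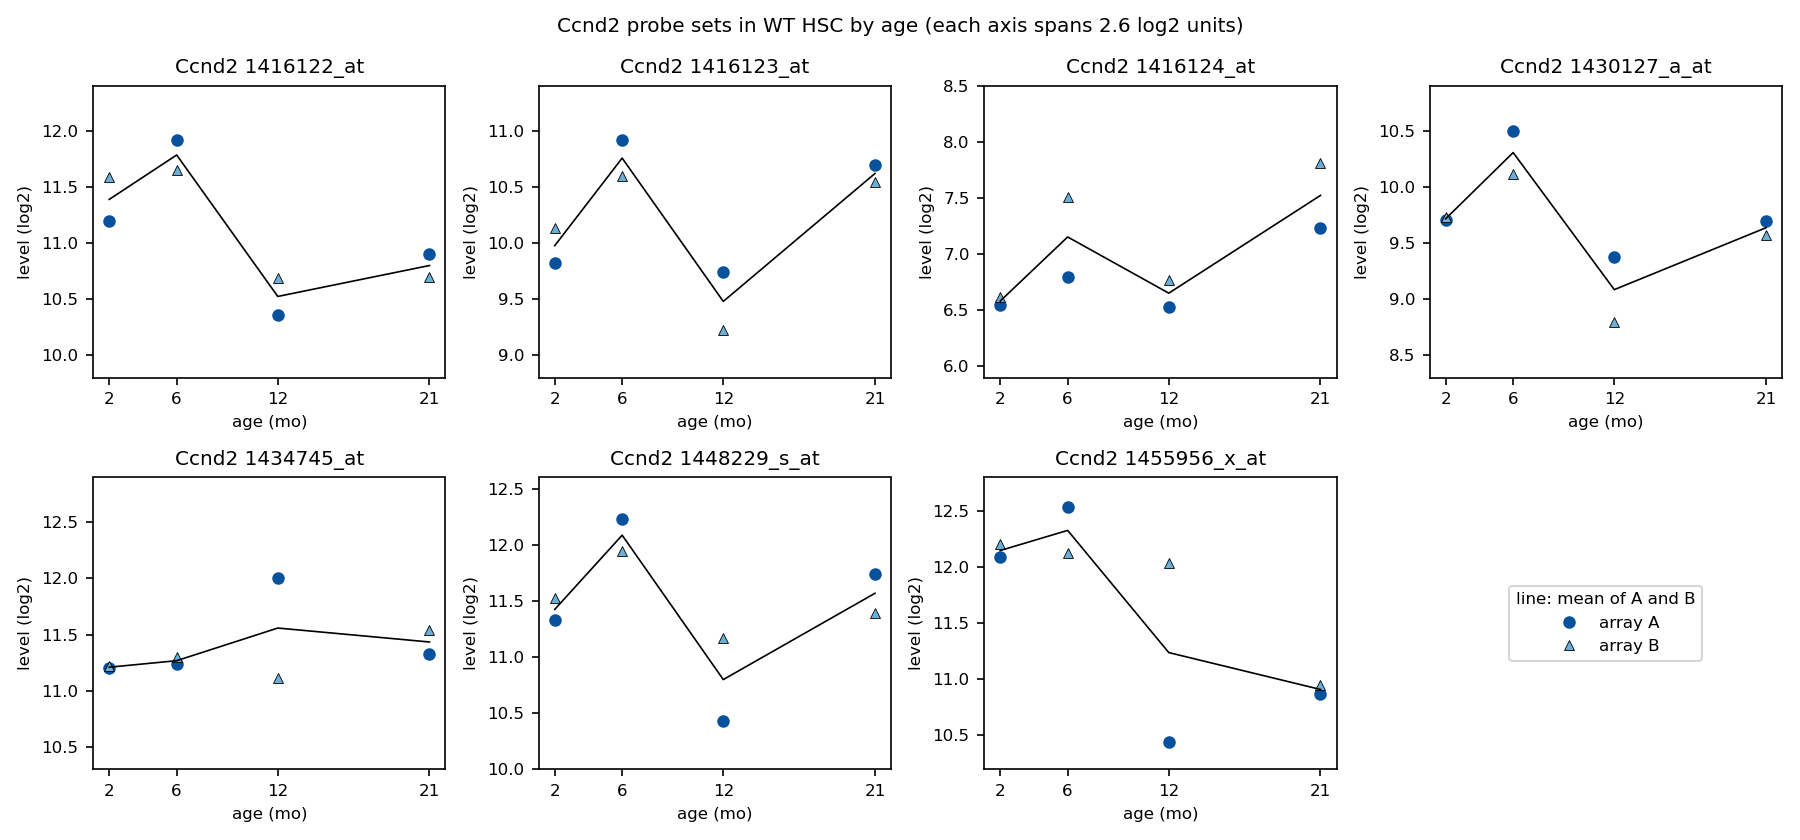
Log2 level of the 7 Ccnd2 probe sets in WT HSCs against age in months; circles are array A, triangles array B, and the line joins their means. The course from 2 to 21 mo differs between probe sets, downward on 1455956_x_at and upward on 1416124_at, and the 2 arrays of 12 mo lie apart on several.

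The other members did not pass. Cdkn1a read 10.87 and 10.60 at 2 mo, 10.81 and 10.27 at 6 mo, 9.18 and 10.60 at 12 mo and 10.58 and 10.29 at 21 mo (−0.42, adjusted p = 0.722), and 1421679_a_at had a difference of 0.41 instead. Cdkn1c was highest at 21 mo, with 7.68 and 7.52, against 7.01 and 7.21 at 2 mo, 7.30 and 6.75 at 6 mo and 7.01 and 6.77 at 12 mo. This difference of 0.44 (SE 0.19, 95% interval −0.02 to 0.91, adjusted p = 0.261) did not pass, although its 21-mo arrays overlapped with none of the other 6. Arrays of 21 and 2 mo alone did not overlap on 68.9% of all probe sets, and no such share was counted against every other age. Cdkn1b (−0.24), Ccnd1 (0.31), Ccnd3 (0.33) and Cdk4 (−0.11) had adjusted p-values of 0.673 to 0.940. Their other probe sets did not pass either, and some ran the other way: 1.33 (adjusted p = 0.437) on 1422440_at and −0.06 on 1422439_a_at for Cdk4, −0.62 on 1417419_at and 0.73 on 1448698_at for Ccnd1, and −0.04 on 1419497_at for Cdkn1b. Cdk4 spread most at 12 mo, where A read 10.95 and B 8.54. Cdkn2a, the inhibitor known for its induction with age elsewhere, read 2.05 and 2.07 at 21 mo and 2.09 and 2.06 at 2 mo, at the bottom of the scale.

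Of the 36 other genes of the pathway, 3 were higher at 21 mo and 1 lower. Cdk2, the kinase of cyclins E and A, was at 7.87 at 21 mo and 6.85 at 2 mo (1.12, adjusted p = 0.0445). E2f5, a repressive E2F, was at 8.13 at 21 mo and 6.31 at 2 mo (1.83, adjusted p = 0.0382). Foxo1, a transcription factor that induces Cdkn1b, was at 8.96 at 21 mo and 7.63 at 2 mo (1.48, adjusted p = 0.0338). Gfi1, a repressor that restrains HSC proliferation, was at 5.68 at 21 mo and 8.32 at 2 mo (−2.59, adjusted p = 0.0385). The 5′ control for 18S ribosomal RNA moved with age as well, at 4.84 and 5.44 on the 21-mo arrays, against 10.91 and 10.88 on the 2-mo arrays, and its part was not tested.

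The p53 genotypes were compared at 12 mo to ask how a gain or a loss of p53 activity bears on HSCs. None of the 10 genes was called in any of the 3 comparisons on its main probe set, but Cdkn1a and Ccnd2 each had another probe set with a call against WT. Between p53+/m and p53+/-, no probe set of the members passed in limma (3 of 22 had an unadjusted p under 0.05, against 9.4% of all probe sets), where 0.084% of all probe sets were called higher in p53+/m and 0.11% lower. Against WT, 2 of 22 were higher in p53+/m HSCs, with 0.208% of all probe sets higher and 0.239% lower. In p53+/- HSCs 1 of 22 was higher than in WT, with 0.0796% higher and 0.084% lower. The 2 comparisons with WT share its 2 arrays, and A and B of these differed most of all groups.

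Cdkn1a, the p53 target, read 10.85 and 11.31 in p53+/m HSCs, 11.34 and 10.59 in p53+/- HSCs and 9.18 and 10.60 in WT HSCs of 12 mo. The difference was 1.19 for p53+/m against WT (SE 0.48, adjusted p = 0.454), 1.08 for p53+/- against WT (adjusted p = 0.651) and 0.11 for p53+/m against p53+/- (95% interval −1.04 to 1.26, adjusted p = 0.9999). On 1421679_a_at, levels were 9.85 and 10.13 in p53+/m HSCs, 9.87 and 9.84 in p53+/- HSCs and 8.32 and 8.31 in WT HSCs. Here both mutants were higher than WT, p53+/m by 1.68 (SE 0.20, adjusted p = 0.0234) and p53+/- by 1.54 (SE 0.20, adjusted p = 0.0486), and they differed from each other by 0.14 (95% interval −0.33 to 0.60, adjusted p = 0.9999).

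These calls rest on the WT arrays of 12 mo, which gave the lowest readings of all 12 HSC arrays on this probe set. WT HSCs of 2, 6 and 21 mo read 9.41 to 10.56, a range that holds all 4 mutant arrays. With the 12-mo arrays alone in the model the adjusted p-values were 0.125 for p53+/m and 0.178 for p53+/-. Mdm2, the other classical p53 target among the pathway genes, was at 8.45 in p53+/m, 8.49 in p53+/- and 8.40 in WT HSCs, and did not pass. Its other probe set read under log2 5, at 4.35 in p53+/m, 4.07 in p53+/- and 3.78 in WT HSCs, and did not pass either (p53+/m minus WT 0.57, adjusted p = 0.368).

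Ccnd2 on its main probe set read 12.22 and 12.18 in p53+/m HSCs, 11.71 and 11.07 in p53+/- HSCs and 10.44 and 12.04 in WT HSCs of 12 mo. The p53+/m arrays lay above those of both other genotypes, but the difference of 0.81 from p53+/- (SE 0.48, adjusted p = 0.755) and that of 0.96 from WT (adjusted p = 0.607) did not pass. On 1416122_at the level was 12.23 and 12.06 in p53+/m HSCs, 11.59 and 10.93 in p53+/- HSCs and 10.36 and 10.69 in WT HSCs, so that the arrays of the 3 genotypes did not overlap. The difference of p53+/m from WT, 1.62 (SE 0.25, adjusted p = 0.0494), was called by a narrow margin and lost its call in 14 of 19 alternatives. That of p53+/- from WT was 0.74 (adjusted p = 0.425). On this probe set too, WT HSCs of 12 mo had the lowest mean of the HSC groups (10.52). WT HSCs of 2, 6 and 21 mo were at 11.39, 11.78 and 10.80, and p53+/m HSCs at 12.14. Against WT, 6 of the 7 probe sets were higher in p53+/m HSCs, by up to 1.62, and 1, 1416124_at, was lower, by −0.32. On all 7, which read 1 gene on the same arrays, p53+/m and WT did not overlap, as on 25.3% of all probe sets. A further pair, 1430127_a_at (1.31, adjusted p = 0.0800) and 1448229_s_at (1.29, adjusted p = 0.0929), missed the threshold.

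**Figure D5:**
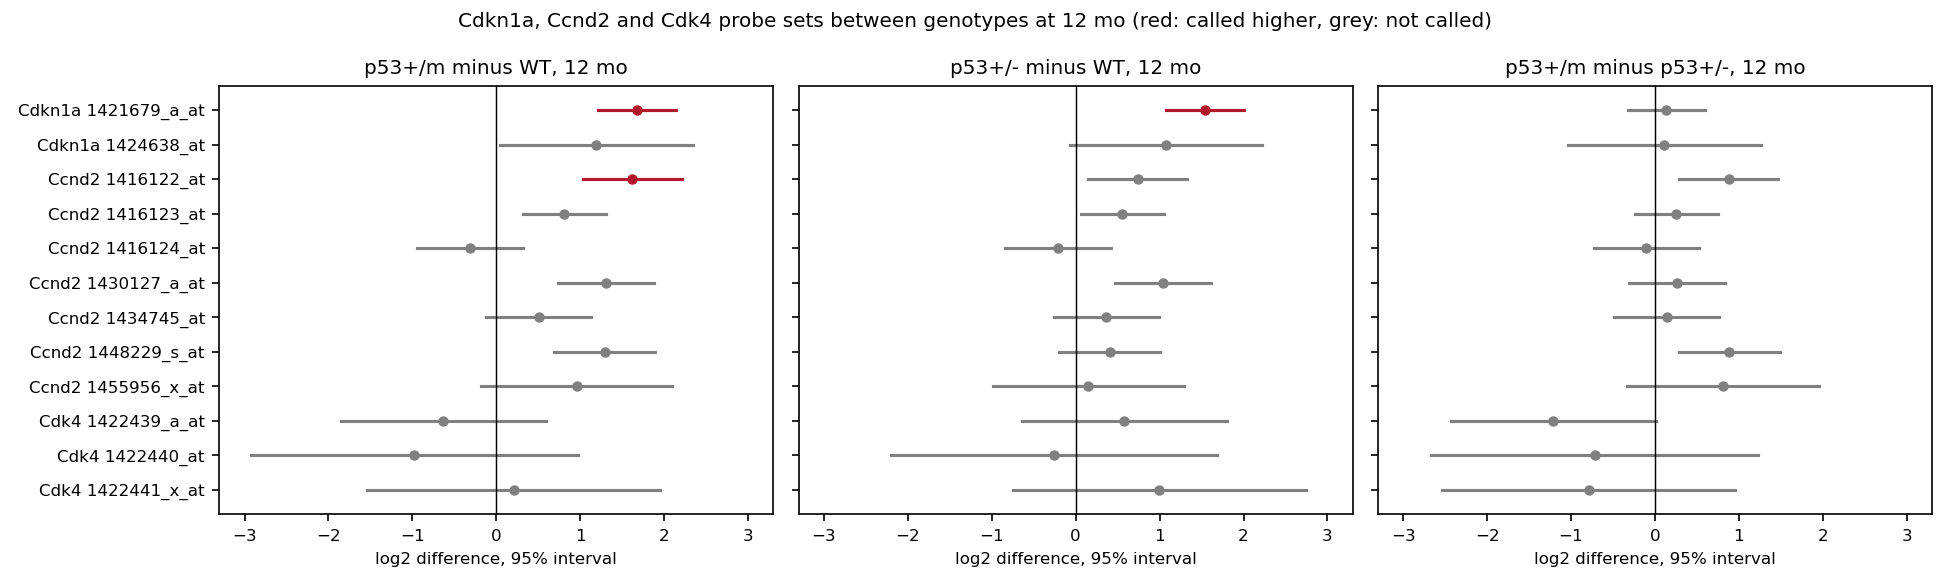
Log2 differences of the Cdkn1a, Ccnd2 and Cdk4 probe sets between HSCs of 12-mo-old mice, p53+/m minus WT, p53+/- minus WT and p53+/m minus p53+/-; points are limma estimates, bars 95% intervals, red called higher, grey not called. Cdkn1a 1421679_a_at is higher in both mutants, by 1.68 and 1.54, and Ccnd2 1416122_at in p53+/m, by 1.62.

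Cdk4 read 10.29 and 9.61 in p53+/m HSCs, 10.40 and 11.07 in p53+/- HSCs and 10.95 and 8.54 in WT HSCs of 12 mo. Its 3 probe sets were all lower in p53+/m than in p53+/- HSCs, by −0.72 to −1.21, with arrays that did not overlap, as on 9 of the 22 probe sets of members and 34.6% of all probe sets, and none passed (lowest adjusted p = 0.540). Ccnd1 on 1448698_at was at 8.20 and 9.25 in p53+/m HSCs, against 7.47 and 7.42 in p53+/- HSCs (1.28, adjusted p = 0.452), while its main probe set differed by 0.37 with arrays that overlapped (adjusted p = 0.9999) and 1417419_at by 0.80 (adjusted p = 0.920). Cdkn1b, Cdkn1c, Cdkn2c and Ccnd3 differed by −0.11 to 0.41 between p53+/m and p53+/- HSCs, and none of these passed. Without WT 12 mo A, Cdk4 was called higher in p53+/- than in WT HSCs (2.20, adjusted p = 0.0413, against a difference of 0.995 and adjusted p of 0.857 with it). Without WT 12 mo B, Cdkn1a (1.90, adjusted p = 0.0481) and Ccnd2 (1.76, adjusted p = 0.0230) were called higher in p53+/m than in WT HSCs. Among the other 36 genes, Foxo1 was lower than in WT HSCs (8.99) in both p53+/m (7.87, difference −1.12, adjusted p = 0.0234) and p53+/- HSCs (7.62, difference −1.37, adjusted p = 0.0219). Its level in WT HSCs of 2 mo, given above, was close to those of the mutants. The 12 proliferation markers had a mean level of 6.74 and 6.94 in p53+/m, 6.65 and 7.76 in p53+/- and 7.39 and 7.78 in WT HSCs, with 1 of 12, Mcm6, called lower in p53+/m than in WT. The 18S control read 5.71 and 7.18 in p53+/m, 8.92 and 7.96 in p53+/- and 4.66 and 9.68 in WT HSCs. The part of either was not tested.

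Over all 7 groups, HSCs and WBM made the widest step in the mean levels of Cdkn1a, Cdkn2c, Ccnd2 and Ccnd3, each on its main probe set. For Cdkn1a, p53+/m HSCs (11.08 ± 0.33), p53+/- HSCs (10.97 ± 0.53) and WT HSCs of 2 mo (10.73 ± 0.19), 6 mo (10.54 ± 0.38), 21 mo (10.44 ± 0.20) and 12 mo (9.89 ± 0.998) followed each other (SD, n = 2 arrays each). All neighbors among these overlapped, while WBM came last at 6.28 ± 0.03. On 1421679_a_at, WT HSCs of 21 mo came first (10.24), and p53+/- HSCs (9.85) did not overlap with WT HSCs of 2 mo (9.52). There WT HSCs of 12 mo (8.31) lay below those of 6 mo (9.47) with no overlap. For Cdkn2c, WBM (9.87 ± 0.03) was followed by WT HSCs of 21 mo (5.61 ± 0.52), and WT HSCs of 2 mo came last (4.24 ± 0.42), both set off from their neighbors by more than the pooled SD with no overlap of arrays. Between these lay WT HSCs of 12 mo (5.03), p53+/m HSCs (4.96), WT HSCs of 6 mo (4.94) and p53+/- HSCs (4.79), which differed from each other by less than the pooled SD of 0.309. For Ccnd2, WT HSCs of 6 mo (12.33), p53+/m HSCs (12.20) and WT HSCs of 2 mo (12.15) lay within 0.475, the pooled SD. The p53+/- HSCs (11.39) came 0.761 below the last of these with no overlap of arrays. WT HSCs of 12 mo (11.24) and 21 mo (10.91) followed, with WBM last at 7.73. The order of the HSC groups differed on its other probe sets. On 1430127_a_at, p53+/- HSCs (10.13) lay above WT HSCs of 2 mo (9.72) with no overlap. They lay below them on 1416122_at (11.26 against 11.39). On 1416124_at, WT HSCs of 21 mo came first (7.52). For Ccnd3, WBM (10.21) stood above the HSC groups, whose means ran from 7.64 in WT HSCs of 6 mo to 8.60 in p53+/- HSCs.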

How the data were processed

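RNA of HSCs and WBM was measured on 14 arrays, 2 in each of 7 groups. The authors computed GC-RMA values, which were deposited on the log2 scale; the version of GC-RMA and whether all arrays were normalized together were not found in the paper or the labels. GC-RMA corrects background by probe sequence and normalizes between arrays, which can compress low readings. The values were used as deposited, for 22626 probe sets without the 64 controls. The probe table gave 1 symbol to 20380 of them, several to 691 and none to 1555. For a gene with several probe sets, the one brightest on average in the 8 WT HSC arrays was used.

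Tests were made with limma 3.58.1 (lmFit, eBayes) in R 4.3.3, with Benjamini-Hochberg adjustment over all probe sets: a quadratic age trend over 8 WT HSC arrays (21 minus 2 mo), group means over 10 WT arrays (HSCs minus WBM) and group means over 12 HSC arrays (genotypes). Intervals are 95%. The procedure was tested on simulated data. The number of arrays limits the precision. Alternatives left out each array and varied normalization, low-value filter, prior, trend, arrays, replicate block and probe sets. Promoter motifs and likeness of patterns were computed in Python 3.11.15. All probe sets of the members are given, and of the other pathway genes those called, at most 4 in a direction by size. Foxo3, Cdk7, Mdm2 and the other probe sets of Skp2, Cks2, Fbxw7 and E2f5 were named after their values were seen. For members with an SD of at least 1, the 3 nearest genes are named. The members, gene lists and markers were chosen with earlier results of these data known.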

Additional observations from a re-analysis of the deposited data

How the results depend on the processing

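The calls of Cdkn1a, Cdkn1c, Ccnd2 and Cdkn2c between HSCs and WBM were kept in all 17 alternatives, and 4 to 6 of the 10 genes were called. The other counts moved with the settings. With age, 641 probe sets were called, but 2065 with a filter on low values, 289 with the replicate block, 978 with a straight line, 353 with group means at the 4 ages, 2086 without both 12-mo arrays, and 23 (without 2 mo B) to 2218 (without 12 mo B) when single arrays were left out; members called numbered 1 with the filter (Cdkn2c) and 1 without both 12-mo arrays (Ccnd2), and 0 to 1 without single arrays (Ccnd2, without 12 mo A). For HSCs against WBM, 4673 became 2750 with the mean of a gene's probe sets, which leaves fewer tests, and 3190 to 5502 without single arrays. For p53+/m against p53+/-, 44 became 16 with the block, 79 with no fold limit, 21 with the mean of probe sets, and 19 to 184 without single arrays. For p53+/m against WT, 101 became 67 with an intensity trend in the prior, 59 with the block, 163 with no fold limit, 30 with the mean of probe sets, and 48 (without either 21 mo array) to 1016 (without WT 12 mo B) without single arrays, with 0 to 2 members called (Cdkn1a and Ccnd2 without WT 12 mo B). For p53+/- against WT, 37 became 7 with the prior trend, 17 with the block, 21 with the mean of probe sets, and 8 (without either 2 mo array) to 1052 (without WT 12 mo A) without single arrays, with 0 to 1 member called (Cdk4, without WT 12 mo A). With the 12-mo arrays alone or the 2 groups alone, 0 probe sets were called in each of the 3 genotype comparisons. The causes were not tested.

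Signs turned for values that were not called. The Cdk4 difference with age became 0.39 with the mean of its probe sets and 0.14 with group means or without the 12-mo arrays, and ran from −0.47 to 0.17 without single arrays; its HSC minus WBM difference became −0.13 with the mean of probe sets. Without single arrays, Ccnd1 with age ran from −0.16 to 0.60, Cdkn1a in p53+/m against p53+/- from −0.26 to 0.49 (−0.0014 to 0.27 on 1421679_a_at), and Ccnd2 in p53+/- against WT from −0.65 to 0.95. The call of Cdkn1a 1421679_a_at against WT was lost in 7 of 19 alternatives for p53+/m (adjusted p 0.00969 to 0.302 over all) and in 13 of 19 for p53+/- (0.0124 to 0.491), and that of Ccnd2 1416122_at in 14 of 19 (0.0281 to 0.304). The letters only name the arrays and give no pairing: A minus B correlated between groups at −0.307 to 0.163 over 21 pairs, with 2 above 0.1. With the replicate block the adjusted p for p53+/- against WT was 0.102 on 1421679_a_at, and for p53+/m against WT 0.0924 on 1416122_at.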
